A study of Arabidopsis thaliana with 7 samples.

Results

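The 10 genes KIN1, KIN2, COR15A, COR15B, RD29A, RD29B, ERD10, COR47, COR413IM1 and COR413IM2 are classical cold- and dehydration-regulated genes of Arabidopsis thaliana. They were chosen by gene identifier from the 27655 genes of the deposited expression table, and all 10 were found there. The table holds RNA sequencing values of whole Col-0 seedlings that were 12 days old, had been raised at 16 °C under long days on MS medium, and were harvested at ZT4, which is 4 h after lights on. It has 3 wild-type (WT) columns and 4 columns of glk1 glk2 double mutants, whose alleles the labels do not give. The labels name no cold shock, drought or hormone treatment, so every level below is one of seedlings kept at 16 °C. Replicates carry only a number, and the labels do not say whether they were grown separately, so each p-value rests on the spread among these 7 libraries, which may be technical.

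GLK1 and GLK2 are GARP-type transcription factors that are known to drive chloroplast formation and photosynthesis genes. Plants that sense cold are known to induce the CBF (DREB1) transcription factors, which bind the C-repeat or dehydration-responsive element (DRE, core CCGAC) in promoters of the COR, KIN and RD29 genes. Water loss acts on many of the same genes through abscisic acid, its PYR/PYL receptors and the ABF transcription factors, which bind the abscisic acid-responsive element (ABRE, core ACGTG). The proteins are mostly small and hydrophilic and are known for protecting membranes and other proteins during freezing and drying: COR15A and COR15B act in the chloroplast stroma, COR413IM1 and COR413IM2 sit in the inner envelope membrane of the chloroplast, and ERD10 and COR47 are dehydrins. KIN1 and KIN2 are short proteins induced by cold and abscisic acid, and RD29A and RD29B are widely used as reporter genes for the DRE and the ABRE, respectively.

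The 10 genes form 5 tandem pairs of related genes, each on the same strand and adjacent among protein-coding genes in the RefSeq annotation of TAIR10.1. KIN1 (AT5G15960, chr5:5209717-5210826, plus strand) lies 892 bases before KIN2 (AT5G15970, chr5:5211719-5212743), and their coding sequences were identical at 191 of 201 aligned positions (95.02%). RD29B (AT5G52300, chr5:21237021-21239531, plus strand) lies 1185 bases before RD29A (AT5G52310, chr5:21240717-21243644), with a coding identity of 61.1%. COR15A (AT2G42540, chr2:17710441-17712330, minus strand) ends 7 bases before COR15B (AT2G42530, chr2:17708593-17710433) begins, with an identity of 82.9%. ERD10 (AT1G20450, chr1:7087903-7089606, minus strand) and COR47 (AT1G20440, chr1:7084409-7086873) are 1029 bases apart and share 74.1%. COR413IM1 (AT1G29395, chr1:10288129-10289666, minus strand) and COR413IM2 (AT1G29390, chr1:10286067-10288103) are 25 bases apart and share 86.9%.

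The sources used here do not say how reads shared between such copies were assigned. Each transcript was cut into all its 50-base stretches, and these were looked for on either strand of the transcripts of every other gene. Of the stretches, 98.7% in KIN1 and 98.6% in KIN2 occurred in no other gene, as did 99.0% in COR413IM1, 95.6% in COR413IM2, 72.7% in COR15B and 100% in the other 5 genes. COR15B overlaps AT2G42520 on the opposite strand by 468 bases, and COR413IM2 overlaps AT1G29380 on the opposite strand by 98 bases. Whether reads were counted by strand is not stated, so the values of COR15B and, over a shorter stretch, COR413IM2 may hold reads of those neighbours and are uncertain to that extent.

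The 250 bases before the annotated start are printed for KIN1, RD29A and COR413IM1, which rose or fell in the mutant, and for KIN2 and RD29B, tandem partners whose windows lie outside exons. They show which of the letters linked to cold, abscisic acid and GLK stand close to the start. Sequences are from RefSeq TAIR10.1, 5′ to 3′ on the gene's strand. Capitals mark the DRE core CCGAC, the ABRE core ACGTG, and CCAATC and AGATTCT, letters that have been linked to GLK binding, each on either strand; CACGTG counts once on each strand.
KIN1 promoter, chr5:5209467-5209716, plus strand: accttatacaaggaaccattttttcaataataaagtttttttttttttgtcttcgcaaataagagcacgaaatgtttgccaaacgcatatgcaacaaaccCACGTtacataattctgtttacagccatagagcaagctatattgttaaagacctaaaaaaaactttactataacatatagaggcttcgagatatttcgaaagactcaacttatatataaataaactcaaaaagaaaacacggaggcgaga
KIN2 promoter, chr5:5211469-5211718, plus strand: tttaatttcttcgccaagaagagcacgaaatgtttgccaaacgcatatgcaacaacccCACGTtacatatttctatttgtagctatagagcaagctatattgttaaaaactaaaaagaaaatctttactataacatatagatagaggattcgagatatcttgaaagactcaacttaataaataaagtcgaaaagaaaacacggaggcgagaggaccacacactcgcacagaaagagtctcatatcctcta
RD29A promoter, chr5:21240467-21240716, plus strand: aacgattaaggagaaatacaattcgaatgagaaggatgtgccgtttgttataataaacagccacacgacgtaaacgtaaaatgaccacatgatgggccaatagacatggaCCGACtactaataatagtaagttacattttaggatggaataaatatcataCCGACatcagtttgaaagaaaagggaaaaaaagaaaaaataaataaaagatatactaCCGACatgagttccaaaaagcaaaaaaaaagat
RD29B promoter, chr5:21236771-21237020, plus strand: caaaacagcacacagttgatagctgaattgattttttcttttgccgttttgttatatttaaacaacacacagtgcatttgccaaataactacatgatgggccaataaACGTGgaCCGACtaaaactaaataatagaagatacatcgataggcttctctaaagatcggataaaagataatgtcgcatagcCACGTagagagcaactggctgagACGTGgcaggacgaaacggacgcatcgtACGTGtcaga
COR413IM1 promoter, chr1:10289667-10289916, minus strand: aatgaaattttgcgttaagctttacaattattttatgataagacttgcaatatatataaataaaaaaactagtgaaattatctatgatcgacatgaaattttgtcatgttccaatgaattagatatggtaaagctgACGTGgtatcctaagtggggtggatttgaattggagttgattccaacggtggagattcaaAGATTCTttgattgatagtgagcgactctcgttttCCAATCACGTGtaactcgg
The RD29A window holds CCGAC 3 times, with first bases 136, 86 and 29 bases before the annotated start, and no ACGTG. Downstream of that start, RD29A has a further CCGAC and an ACGTG, 204 and 139 bases before the start codon. The RD29B window holds 1 CCGAC and 4 ACGTG. In KIN1 and KIN2 the printed windows hold 1 ACGTG each, and the CCGAC of both genes lies downstream of the annotated start, 174 and 181 bases before the start codon. The COR413IM1 window holds AGATTCT 48 bases and CCAATC 14 bases before the start, the latter overlapping a CACGTG by 1 base. The windows of COR15B and COR413IM2 fall in exons of their neighbours and are not shown.

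Over the 500 bases before the start codon, 9 of the 10 genes held CCGAC (all but COR413IM2), against 23.4% of 27443 promoters, and 9 held ACGTG (all but ERD10), against 34.9%. CCAATC was found in 2 genes, COR413IM1 and COR413IM2, against 21.2% of promoters, and AGATTCT in 3, COR15A, COR413IM1 and COR413IM2, against 15.5%. In the 250 bases before the annotated start, CCGAC was in 3 genes (12.0% of promoters), ACGTG in 6 (22.9%), CCAATC in 2 (10.2%) and AGATTCT in 2 (6.22%). The 2 genes with AGATTCT there were COR413IM1, which fell in the mutant, and ERD10, which rose. In ERD10, whose window is not printed, it lies 206 bases before the start. The counts include the windows of COR15B and COR413IM2, which fall in exons of their neighbours. The CCAATC of COR413IM2 lies 43 bases before its annotated start. Only 25 bases separate the 2 genes there, so this match lies within COR413IM1. A match describes letters only and is not a binding site shown to be used.

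Values are TPM, a transcript level corrected for transcript length that sums to the same total in every library and keeps no read depth, so no counting interval can be given. Of the 27655 genes, 19127 reached at least 1 TPM in at least 3 of the 7 libraries and were tested with limma on log2(TPM + 1), and all 10 genes passed. GLK1 had a WT mean of 191 ± 10.4 TPM (SD, n = 3) and a mutant mean of 51.7 ± 2.93 TPM (SD, n = 4), and GLK2 of 158 ± 2.85 and 50.6 ± 3.49 TPM, so both transcripts were reduced but present in the libraries labelled glk1 glk2. The antenna transcript LHCB1.3 alone went from 29898 to 6941 TPM, and over all tested genes the median log2 fold change was 0.33 in TPM and 0.01 after trimmed mean of M values (TMM) scaling. A gene is therefore said to have risen or fallen only where its adjusted p was under 0.05 in the same direction both in TPM and after TMM scaling.

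Of the 10 genes, KIN1, RD29A and ERD10 rose and COR413IM1 and COR15B fell in the mutant, and 5 did not pass in both scalings. Over all tested genes 3.20% rose and 2.53% fell, or 613 and 483 genes. Leaving out 1 library moved these to between 165 (without WT replicate 2) and 781 (without mutant replicate 3) higher and between 356 and 572 lower. The count of higher genes was 197 without WT replicate 1, 328 without WT replicate 3 and 311 without mutant replicate 1. In TPM alone, limma called 5 of the 10 higher, where 63.0% of all genes were, and 2 lower, where 2.56% were. After TMM scaling alone it called 3 higher, where 3.20% of all genes were, and 3 lower, where 4.96% were. The 5 genes that changed come from each of the 5 pairs, 1 from each, and in no pair did both genes pass. Over the 10 genes the median log2 fold change was 0.44 (TPM) and 0.14 (TMM-scaled), with a range after scaling from -1.35 to 0.67. Because whole seedlings were sampled, fewer cells of a type and less RNA per cell cannot be told apart.

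**Figure D1:**
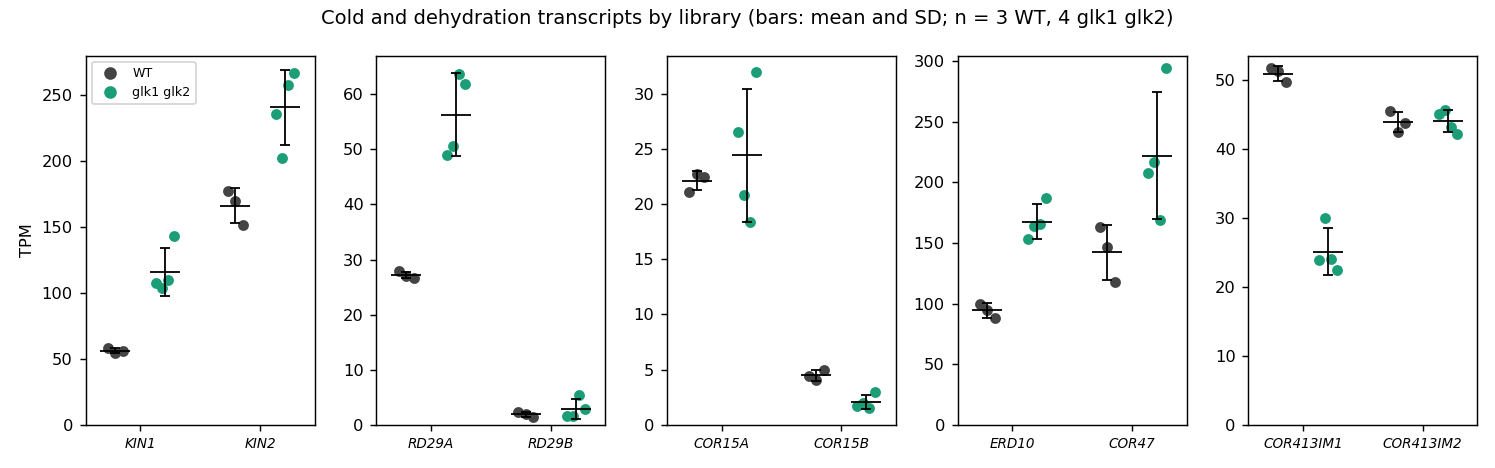
Level of each of the 10 genes in TPM (vertical axis, from 0, a scale of its own in each panel) in the WT libraries (grey) and the glk1 glk2 libraries (green), with mean and SD as bars. The groups stand apart for KIN1, RD29A, ERD10 and COR413IM1, while the 7 libraries of COR413IM2 lie between 42.2 and 45.8 TPM.

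KIN1 and KIN2 encode the shortest proteins of the 10, with 66 residues each. KIN1 was at 58.1, 54.3 and 55.8 TPM in the WT libraries and at 108, 104, 110 and 144 TPM in the mutant libraries. Every mutant library was above every WT library, and mutant replicate 4 was the highest. The mean of 56.1 ± 1.92 TPM in WT (SD, n = 3) became 116 ± 18.4 TPM in the mutant (SD, n = 4), 2.07-fold higher, and the log2 fold change was 1.03 in TPM (SE 0.11, limma adjusted p = 0.000293) and 0.67 once TMM-scaled (adjusted p = 0.00533). KIN2, its near-identical neighbour and the most abundant of the 10 transcripts, was at 177, 170 and 152 TPM in WT, and at 236, 203, 258 and 267 TPM in the mutant. The groups did not overlap in TPM, and the means were 166 ± 13.1 and 241 ± 28.6 TPM. The log2 fold change of KIN2 was 0.53 in TPM (adjusted p = 0.00238) but 0.17 after TMM scaling (adjusted p = 0.278), so KIN2 was not called.

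RD29A and RD29B encode the longest, with 710 and 619 residues, and RD29A was the far more abundant transcript of the pair in each library. RD29A was at 27.8, 27.1 and 26.6 TPM in WT, and at 48.9, 50.7, 63.7 and 61.9 TPM in the mutant. The WT libraries lay close together and all 4 mutant libraries were above them. The means were 27.2 ± 0.61 and 56.3 ± 7.59 TPM, 2.07-fold higher in the mutant, and the log2 fold change was 1.01 in TPM (SE 0.10, limma adjusted p = 0.000235) and 0.66 once TMM-scaled (adjusted p = 0.00196). RD29B, which is known chiefly as an abscisic acid-induced gene, was low: 2.3, 1.95 and 1.37 in WT and 1.65, 1.68, 5.47 and 2.82 TPM in the mutant. Mutant replicates 1 and 2 lay within the WT range and replicate 3 was far above the rest. Its log2 fold change was 0.35 in TPM (95% interval -0.32 to 1.03, adjusted p = 0.307) and 0.11 after TMM scaling (adjusted p = 0.847).

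The dehydrin genes ERD10 and COR47 encode acidic proteins known to bind membranes and water as cells dry. ERD10 was at 100.03, 95.03 and 88.3 TPM in WT, and at 154, 164, 166 and 187 TPM in the mutant. The groups did not overlap, and the mean rose from 94.4 ± 5.91 to 168 ± 14.3 TPM, 1.77-fold. The log2 fold change was 0.82 (SE 0.08, limma adjusted p = 0.000218) in TPM and 0.46 (adjusted p = 0.00809) after TMM scaling. This call was lost without WT replicate 2, where the adjusted p after TMM scaling was 0.0510. COR47 was at 163, 146 and 118 TPM in WT, and at 208, 217, 169 and 294 TPM in the mutant. The mutant libraries lay above the WT libraries, but mutant replicate 3 exceeded the highest WT library by little and replicate 4 stood far above the others. For COR47 the log2 fold change was 0.62 in TPM (adjusted p = 0.0131) and 0.26 once TMM-scaled (adjusted p = 0.424), which is not a call.

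Of the 4 genes whose products go to the chloroplast, COR413IM1 and COR15B fell, and COR413IM2 and COR15A did not pass in both scalings. Of the 2 that fell, COR15B has the antisense overlap. These 4 genes do not stand for chloroplast proteins as a class, for which no share is given. The plastid proteins BAM3 and ERD1, described below, rose, with log2 fold changes after TMM scaling of 1.10 and 0.24. COR413IM1, an inner envelope membrane protein, was at 51.8, 51.4 and 49.7 TPM in WT, and at 24.0, 30.1, 24.0 and 22.4 TPM in the mutant. All 4 mutant libraries lay far below the WT libraries, with replicate 2 the highest of them. The means were 51.0 ± 1.11 and 25.1 ± 3.38 TPM, and WT was 2.03-fold higher. The log2 fold change was -1.001 in TPM (SE 0.09, limma adjusted p = 0.000211) and -1.35 once TMM-scaled (adjusted p = 0.00015). COR413IM2, the related envelope protein encoded next to it, was at 45.5, 42.5 and 43.8 TPM in WT, and at 45.1, 45.8, 43.3 and 42.2 TPM in the mutant. The groups overlapped fully, with a log2 fold change in TPM of 0.0048 (95% interval -0.13 to 0.13, adjusted p = 0.944). After TMM scaling the same values gave a lower level in the mutant, with a log2 fold change of -0.35 (adjusted p = 0.0164), so the direction depends on the scaling.

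COR15A, a stromal protein known to stabilise chloroplast membranes during freezing, was at 21.1, 22.7 and 22.5 TPM in WT, and at 26.5, 20.9, 18.4 and 31.9 TPM in the mutant. The WT libraries were close together and fell inside the wider range of the mutant libraries. Its log2 fold change was 0.11 in TPM (95% interval -0.26 to 0.47, adjusted p = 0.569) and -0.24 after TMM scaling (adjusted p = 0.417). COR15B, the paralogous stromal protein, was at 4.45, 4.03 and 5.01 TPM in WT, and at 1.70, 2.01, 1.54 and 2.93 TPM in the mutant. The groups did not overlap, and the means were 4.50 ± 0.49 and 2.05 ± 0.62 TPM. COR15B fell: the log2 fold change was -0.87 in TPM (SE 0.16, limma adjusted p = 0.00188) and -1.14 once TMM-scaled (adjusted p = 0.00275), at a level low enough that the added 1 TPM understates the change.

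**Figure D2:**
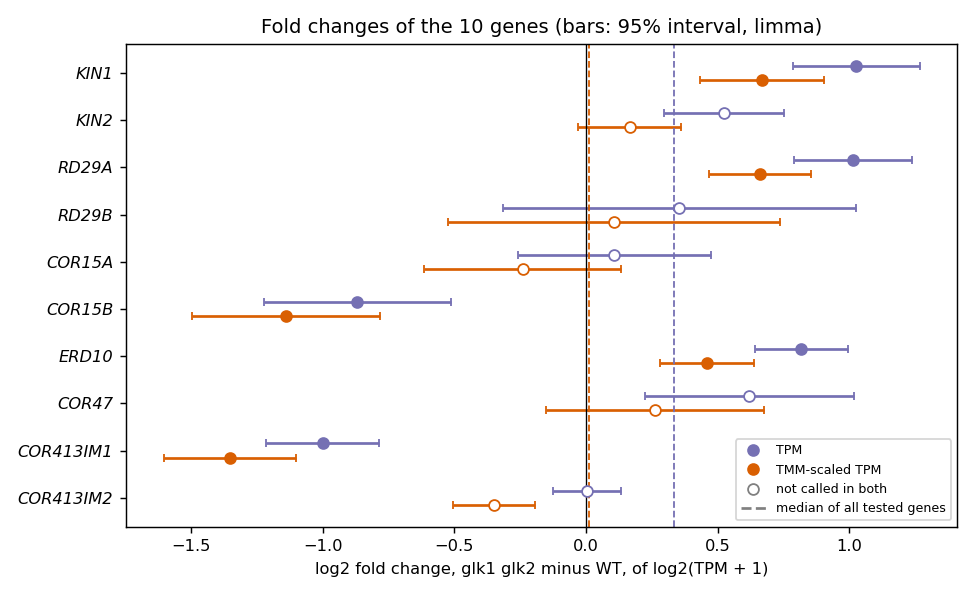
Log2 fold change of each of the 10 genes (glk1 glk2 minus WT, horizontal axis) with its 95% interval, in TPM (purple) and after TMM scaling (orange), open where a gene was not called in both. Dashed lines mark the medians of all tested genes, 0.33 and 0.01; the points of COR413IM2 and COR15A lie on different sides of 0 in the 2 scalings.

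In TPM the groups did not overlap for 7 of the 10 genes, 5 of them higher in the mutant and 2 lower. Among all tested genes, 62.8% were higher without overlap and 2.54% were lower, so the count of higher genes in TPM is no larger a share than that of the table. After TMM scaling, 3 of the 10 were higher without overlap (KIN1, RD29A and ERD10), against 12.1% of all genes, and 3 lower (COR15B, COR413IM1 and COR413IM2), against 11.7%. The order of the mean levels in WT was KIN2, COR47, ERD10, KIN1, COR413IM1, COR413IM2, RD29A, COR15A, COR15B and RD29B. Among neighbours in that order, the libraries of KIN2 and COR47 overlapped, and those of each other pair of neighbours stood apart. In the mutant the order was KIN2, COR47, ERD10, KIN1, RD29A, COR413IM2, COR413IM1, COR15A, RD29B and COR15B. There, overlapping neighbours were KIN2 with COR47, COR47 with ERD10, COR413IM1 with COR15A, and RD29B with COR15B.

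Because each pair is a tandem duplicate, the ratio of its 2 genes within a library was compared between genotypes, a quantity that is nearly free of the scaling of that library. The ratio was tested in the same way for all 14226 pairs of adjacent protein-coding genes in which both genes passed the filter, and 8.00% of them differed with both scalings. Of the 5 pairs described here, 3 differed. The ratio of COR413IM2 to COR413IM1 was 0.878, 0.827 and 0.882 in WT and 1.88, 1.52, 1.80 and 1.88 in the mutant. COR413IM1 was the more abundant gene in every WT library and COR413IM2 in every mutant library. The mean ratio went from 0.862 ± 0.031 (SD, n = 3) to 1.77 ± 0.17 (SD, n = 4), a log2 change of 1.01 (SE 0.11, limma adjusted p = 0.000646 over all pairs).

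The ratio of COR15A to COR15B was 4.75, 5.64 and 4.49 in WT and 15.6, 10.4, 11.9 and 10.9 in the mutant. All mutant libraries were higher, and the mean went from 4.96 ± 0.61 to 12.2 ± 2.35, a log2 change on the scale of log2(TPM + 1) of 0.98 (SE 0.14, adjusted p = 0.00332 in TPM and 0.00486 after TMM scaling). With 5 TPM added in place of 1, this call was lost (adjusted p = 0.0758 after TMM scaling). The ratio of KIN2 to KIN1 was 3.05, 3.13 and 2.72 in WT and 2.2, 1.95, 2.35 and 1.86 in the mutant. KIN2 stayed the more abundant gene in all 7 libraries, and the mean ratio went from 2.97 ± 0.22 to 2.09 ± 0.23, a log2 change of -0.50 (SE 0.12, limma adjusted p = 0.0315 in TPM and 0.0320 after TMM scaling). That call was not stable: it was lost when any library other than mutant replicate 3 was left out, with adjusted p in TPM between 0.0557 and 0.140.

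The ratio of RD29A to RD29B was 12.1, 13.9 and 19.4 in WT and 29.6, 30.2, 11.7 and 21.9 in the mutant. Mutant replicate 3, in which RD29B was highest, had the lowest ratio of all 7 libraries. The log2 change was 0.66 (limma adjusted p = 0.111), and without mutant replicate 3 it was 0.88 (adjusted p = 0.00719 in TPM and 0.0146 after TMM scaling) and the ratio was called. It was also called with all 7 libraries when 5 TPM was added in place of 1 (0.74, adjusted p = 0.00185 and 0.0126) or with array weights (0.86, adjusted p = 0.0034 and 0.00667), so the call depends on these choices too. The ratio of COR47 to ERD10 was 1.63, 1.54 and 1.34 in WT and 1.35, 1.33, 1.02 and 1.57 in the mutant. Those values overlapped, with a log2 change of -0.20 (95% interval -0.54 to 0.15, adjusted p = 0.455).

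**Figure D3:**
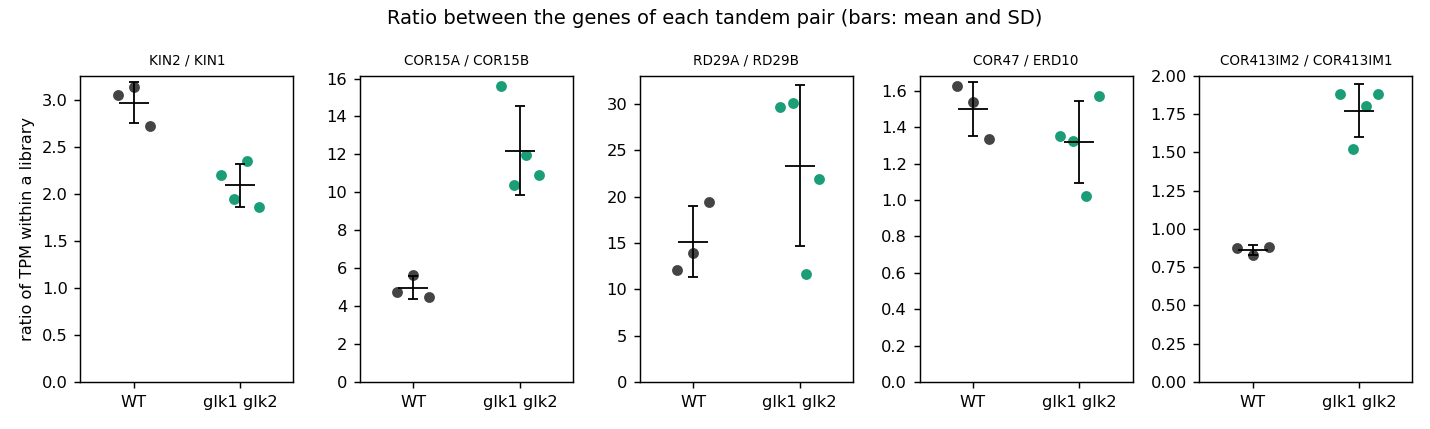
Ratio of the TPM of the 2 genes of each tandem pair within a library (vertical axis, from 0), by genotype, with mean and SD as bars. The ratio of COR413IM2 to COR413IM1 lies below 1 in the WT libraries and above 1.5 in the mutant libraries, and mutant replicate 3 is the low point of RD29A over RD29B.

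The libraries of a genotype did not place all 10 genes in the same order. Mutant replicate 4 had the highest mutant level in TPM of 6 of the 10 genes (KIN1, KIN2, COR15A, COR15B, ERD10 and COR47), replicate 3 of RD29A and RD29B, and replicate 2 of COR413IM1 and COR413IM2. WT replicate 3 had the lowest WT level of 6 of the 10 (KIN2, RD29A, RD29B, ERD10, COR47 and COR413IM1). No share over all tested genes is given for these counts, so they describe the 10 genes only. The summed level of 6 root marker genes, led by PYK10, was 1983 to 2596 TPM in WT, lowest in replicate 3, and 2193.5 to 3582 TPM in the mutant, highest in replicate 4. After TMM scaling the sum was 2324 to 2961 in WT and 1915 (replicate 3) to 3185 (replicate 4) in the mutant. None of the 6 root markers changed in both scalings. In TPM 1 was called higher, where 63.0% of all tested genes were, and after TMM scaling 0 were, where 3.20% of all genes were. A fit added after the data were seen took the root marker level as a covariate. That level was the mean of the log2 values of the 6 genes, in which each weighs the same, and not their sum. In this fit KIN1 (log2 fold change 0.90, limma adjusted p = 0.00115 in TPM), RD29A (0.96, 0.00141), ERD10 (0.72, 0.000771), COR15B (-0.96, 0.0047) and COR413IM1 (-0.94, 0.00126) were still called. COR47 had a log2 fold change of 0.33 (0.0354) and was not called after TMM scaling (0.221).

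Dehydration genes are also known from maturing seeds, and the summed level of 6 seed storage and embryo genes ranged from 1.78 to 358 TPM over the libraries. It was highest in mutant replicate 2 (358 TPM) and WT replicate 2 (116 TPM) and lowest in mutant replicate 4, where KIN1 was highest. The embryo gene EM1 stayed under the filter. Leaf genes were plentiful in every library, and the sum of 4 of them was lower in the mutant (37287 to 41849 TPM) than in WT (58909 to 62452 TPM). The antenna gene LHCB1.3 fell by more TPM than the sum did. In TPM the means of RBCS1A (20460 and 22174) and RCA (8243 and 9544) were higher in the mutant, and that of CA1 was 1871 in WT and 1681 in the mutant, with none of these 3 called in TPM. After TMM scaling all 3 were lower in the mutant, with log2 fold changes of -0.25 (RBCS1A), -0.15 (RCA) and -0.52 (CA1). Of these only CA1 was called in that scaling (limma adjusted p = 0.0391), so the direction of RBCS1A and RCA depends on the scaling.

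**Figure D4:**
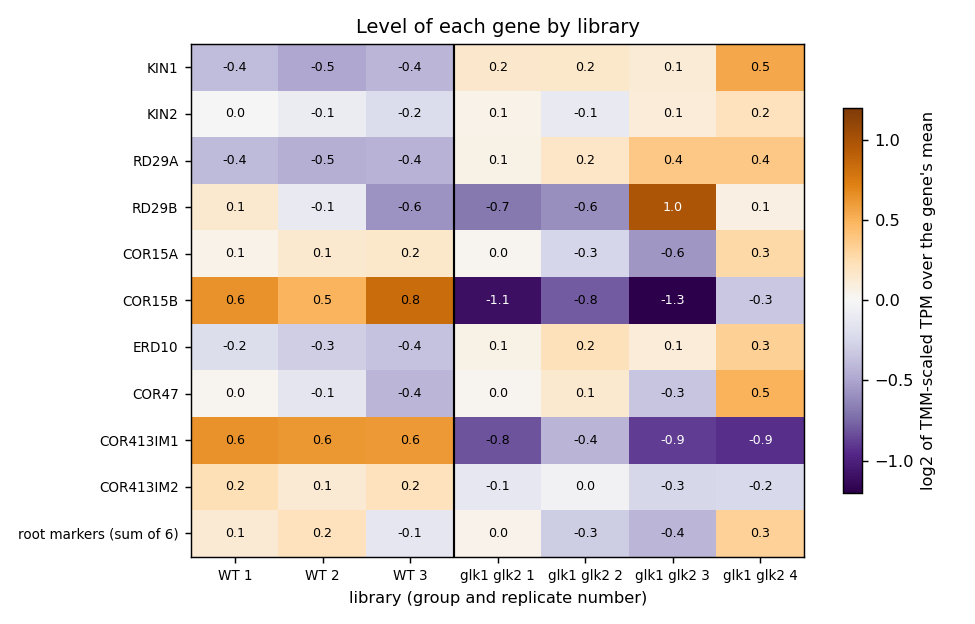
Level of each of the 10 genes and of the summed root markers in each library, as log2 of TMM-scaled TPM over the mean of the 7 libraries (colour and number), with WT left of the line. KIN1, RD29A and ERD10 are below their mean in the 3 WT libraries and above it in the 4 mutant libraries, COR413IM1 and COR15B the reverse, and RD29B is highest in mutant replicate 3.

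The genes above the 10 in the cold and abscisic acid pathways, and other genes known from cold and dehydration, were listed by identifier. Of 97 such genes, 85 passed the filter, 4 rose (4.71%) and 2 fell (2.35%), close to the 3.20% and 2.53% of all tested genes. In TPM alone 58 of the 85 were called higher, where 63.0% of all tested genes were, and 2 lower, where 2.56% were. After TMM scaling alone 4 of the 85 were called higher, where 3.20% of all genes were, and 9 lower, where 4.96% were. Their median log2 fold change was 0.36 in TPM and 0.02 after TMM scaling, against 0.33 and 0.01 for all genes. Leaving out 1 library moved these counts to between 1 and 5 higher and between 1 and 4 lower. BAM3 and PYL7 were called in each of the 21 alternatives run, RAV1 in 15, LTP3 in 12, ABF1 in 10 and ERD1 in 9. Of the 97 genes, 16 lie in rows where WT replicate 1 was reassigned, as described with the processing, and read as deposited the counts were 1 higher and 1 lower. Over all genes that reading gave 202 higher and 327 lower. With WT replicate 1 set to missing in those rows, the pathway counts were 4 higher and 2 lower.

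In the cold signalling list, 1 of 22 tested genes rose and 0 fell. It was RAV1, an AP2/B3 transcription factor, which was at 29.3, 30.5 and 27.1 in WT and 54.6, 57.0, 46.1 and 55.5 TPM in the mutant. The groups stood well apart, and the log2 fold change was 0.86 in TPM (limma adjusted p = 0.000242) and 0.50 after TMM scaling (adjusted p = 0.016), lost without any WT library or mutant replicate 1. The CBF genes, which encode the activators of COR genes in the cold, were low throughout. CBF1 was at 0.11 to 0.29 TPM in WT, at 0.07 to 0.41 TPM in mutant libraries, and stayed under the filter (exact two-sided permutation test over the 35 divisions of the libraries, p = 0.686, smallest possible p 0.0286). CBF2 had means of 0.88 ± 0.33 and 1.55 ± 0.32 TPM, and CBF3 of 1.31 ± 0.39 and 2.68 ± 0.30 TPM.

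The libraries of CBF2 and of CBF3 were higher in the mutant without overlap in TPM, as were those of 62.8% of all tested genes. After TMM scaling CBF3 was still higher without overlap, as were 12.1% of all genes, and CBF2 overlapped. Neither gene was called after TMM scaling (limma adjusted p = 0.379 for CBF2 and 0.0771 for CBF3). DREB2A, a drought- and heat-linked DREB factor, had means of 3.41 ± 0.65 and 6.29 ± 1.07 TPM and was not called after TMM scaling either (adjusted p = 0.144). ICE1, the bHLH factor known as an activator of CBF genes, had means of 25.9 ± 1.66 and 30.9 ± 2.33 TPM, and its direction depended on the scaling: the log2 fold change was 0.24 in TPM and -0.11 once TMM-scaled (adjusted p = 0.376).

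Among 23 tested genes of abscisic acid perception and signalling, 1 rose and 1 fell. ABF1, a bZIP factor of the kind that binds the ABRE, was at 10.10, 10.6 and 10.9 in WT and 17.8, 16.6, 16.6 and 21.4 TPM in the mutant. All mutant libraries were above the WT libraries, but the adjusted p after TMM scaling was only 0.043 (0.000629 in TPM), and the call was lost without any library other than mutant replicate 3. PYL7, an abscisic acid receptor, was at 20.1, 22.4 and 20.6 in WT and 16.3, 17.1, 15.1 and 14.7 TPM in the mutant. It fell by 0.39 on the log2 scale in TPM (adjusted p = 0.00247) and by 0.74 with TMM scaling (adjusted p = 0.0011). ABF3, another ABRE-binding factor, had means of 57.9 ± 2.38 and 61.0 ± 1.87 TPM, and the log2 fold change was 0.07 in TPM (adjusted p = 0.263) and -0.28 once TMM-scaled (adjusted p = 0.0128).

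Of 9 tested genes of abscisic acid synthesis and breakdown, 0 passed in both scalings by limma. In TPM 6 were called higher, where 63.0% of all tested genes were, and once TMM-scaled 0 were, where 3.20% were. An unadjusted p below 0.05 was found for 6 in TPM and 3 once TMM-scaled, counts without a share over all genes to set beside them. The gene with the smallest p in TPM was ABA1, zeaxanthin epoxidase, whose means were 480 ± 12.4 and 725 ± 37.6 TPM, with an adjusted p of 0.000333 in TPM and 0.104 after TMM scaling. NCED3, the dioxygenase that is induced when leaves lose water, was at 5.30, 4.85 and 4.30 in WT and 5.72, 3.89, 5.69 and 4.84 TPM in the mutant, and the groups overlapped (adjusted p = 0.769 in TPM).

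Of 32 tested other cold and dehydration genes, 2 rose and 1 fell. BAM3, a plastid beta-amylase of starch breakdown that is known to be cold-induced, was at 99.0, 96.2 and 100.2 in WT and 297, 259, 239 and 298 TPM in the mutant. Each mutant library was far above the WT libraries, and the log2 fold change was 1.46 in TPM (SE 0.08, limma adjusted p = 1.873e-05) and 1.10 once TMM-scaled (adjusted p = 0.000201), larger than that of any of the 10 genes that rose. ERD1, a Clp protease regulatory subunit of the chloroplast, had means of 71.4 ± 2.29 and 109 ± 9.28 TPM and rose with an adjusted p of 0.0433 after TMM scaling, lost without any library other than mutant replicate 2. LTP3, a lipid transfer protein, went from 17.6 ± 0.86 to 14.5 ± 1.67 TPM (adjusted p = 0.0321 in TPM and 0.00419 after TMM scaling), a call lost without any library other than mutant replicates 2 and 3.

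The dehydrin genes ERD14, RAB18 and LTI30 did not pass in both scalings. ERD14, an acidic dehydrin like ERD10 and COR47, was named after its values were seen. It had means of 251 ± 26.4 and 329 ± 55.1 TPM, with an adjusted p of 0.0331 in TPM and 0.960 once TMM-scaled. RAB18, known as an abscisic acid-induced dehydrin, was at 55.3, 44.3 and 40.6 in WT and 50.5, 61.4, 50.4 and 67.3 TPM in the mutant. Its groups overlapped (adjusted p = 0.0757 in TPM and 0.817 after TMM scaling). LTI30, a cold-induced dehydrin, had means of 56.7 ± 10.9 and 86.0 ± 8.01 TPM, without overlap, and adjusted p of 0.00353 in TPM and 0.258 after TMM scaling.

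**Figure D5:**
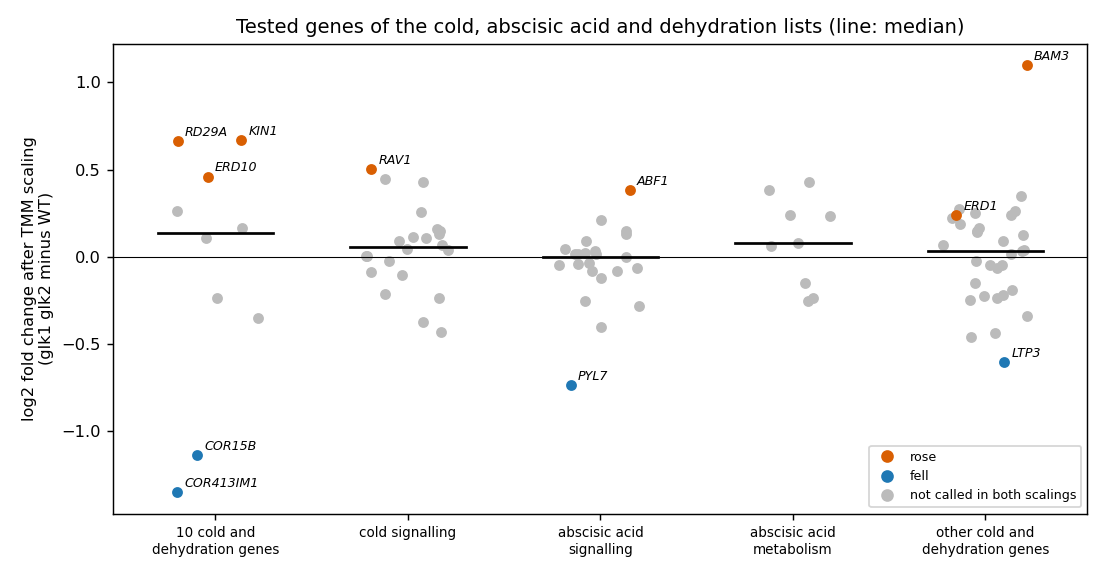
Log2 fold change after TMM scaling (glk1 glk2 minus WT, vertical axis) of the 10 genes and of each tested gene of the 4 pathway lists, with the median of each list as a line and genes that rose or fell in both scalings coloured and named. COR413IM1 and COR15B lie below every gene of the 4 lists, and BAM3 lies above every gene shown.

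Genes with the most similar profile were sought among 14691 genes with a mean of at least 5 TPM, by Pearson's r of log2(TMM-scaled TPM + 1) over the 7 libraries. Those libraries fall into 2 genotypes, so r mainly describes a step between groups after TMM scaling, whatever its size, and no p is given. The 5 genes most like KIN1 were AMT1;1 (r = 0.993), an ammonium transporter, GC5 (0.992), AT3G56260 (0.990), PPDK (0.990), pyruvate phosphate dikinase, and CHX20 (0.990), a cation exchanger. AMT1;1 had means of 30.6 ± 0.36 and 52.6 ± 4.47 TPM. The 5 genes most like COR413IM1 were AT1G03610 (r = 0.999), PSAN (0.998) and PSAD-1 (0.997), which encode photosystem I subunits, AT1G52220 (0.997) and PGLCT (0.996), a plastid glucose transporter. In TPM the likeness covers steps of unlike size and direction: PGLCT had means of 104 ± 1.32 and 107 ± 2.04, AT1G03610 of 31.8 ± 0.37 and 28.4 ± 0.68. PSAN had means of 3075.8 ± 55.8 and 1635 ± 160 TPM.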

How the data were processed

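Per the submitters' processing notes, TopHat2, Cufflinks and the build TAIR10 were used, with no versions given. The authors deposited 1 table of TPM values with a column per library. The sources used here do not give the strand setting, the annotation or the handling of shared reads. The WT replicate 1 column follows the alphabetical order of the identifiers rather than the row order and was read that way. This moves 5606 rows, 0 of the 10 genes and 16 of the 97 pathway genes, and raises its correlation with the other libraries in those rows from 0.055 to 0.995.

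Genes at 1 TPM or more in at least 3 libraries were compared by limma 3.58.1 in R 4.3.3 (two-sided, with a mean-variance trend, called at an adjusted p under 0.05 by Benjamini and Hochberg) on log2(TPM + 1), which understates changes of low genes. The fit was repeated after TMM scaling of the TPM table (trims of 30% and 5%). Neighbour ratios were fitted likewise on differences of log2 values. Loci, coding identity and motifs were computed with Python 3.11.15 and Biopython 1.88 from RefSeq TAIR10.1, where 27445 identifiers matched. No coordinates stand in the deposited table. The tables of RefSeq promoters and proteins were not used here.

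The genes, lists and tests were chosen with earlier results of these data known. Genes were named by rule: the 10, up to 4 called genes with the largest TPM change in each list (or the smallest p), 11 further cold, abscisic acid and GLK genes, and the 5 genes most like KIN1 and COR413IM1. The fits were tested on simulated data. Alternatives changed scaling, pseudocount, filter, variance model, threshold, the reading of WT replicate 1 and the libraries used.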

Additional observations from a re-analysis of the deposited data

Results flagged for a closer look

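KIN1 was at 143.56 TPM in mutant replicate 4, against 104.14 to 109.68 TPM in the other mutant libraries, a gap large for the range of 4 libraries by Dixon's criterion. LTI30, a cold-induced dehydrin gene, was at 97.97 TPM in the same library, against 80.91 to 82.61 TPM in the others. These are 2 of 28 genes looked at in this way, and chance alone flags about 5% of them. Single high values were not confined to replicate 4 or to these 2 genes. In mutant replicate 3, ADH1 was at 13.6 TPM, against 3.74 to 4.26 TPM in the other mutant libraries. LTP4 was at 8.33 TPM there, against 3.57 to 3.86 TPM. Mutant replicate 4 also had the highest summed root marker level, 3582 TPM. The part of root tissue in these values was not tested. KIN1 was still called in the fit with root marker level as a covariate, which was added after the data were seen and does not measure that part. Without mutant replicate 4, KIN1 was called as well, with a log2 fold change of 0.92 in TPM.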

How the results depend on the processing

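KIN1, RD29A and COR413IM1 were called in the same direction in all 21 alternatives, COR15B in the 20 in which it was tested, and ERD10 in 19. ERD10 was lost without WT replicate 2 and with the replicate block. In TPM alone 5 of the 10 genes were higher, and with a mean of at least 5 TPM 1 was lower, because COR15B then stayed out. Leaving out a library gave 2 to 3 higher and 2 lower, and 2 to 4 pair ratios that differed. COR15A reversed to a log2 fold change of -0.24 with TMM scaling, -0.25 with quantile normalization, -0.0757 with the root covariate and, among fits without a library, a range from -0.0274 to 0.23. COR413IM2 reversed to -0.35 with TMM scaling and -0.33 with quantile normalization, and ranged from -0.0183 to 0.0295 without a library. For the 97 pathway genes, the counts higher were 58 in TPM alone, 16 with array weights, 7 with quantile normalization, and 1 with WT replicate 1 as deposited or at an adjusted p under 0.01. The counts lower were 9 with TMM scaling or quantile normalization alone and 1 as deposited, at 0.01 or with the root covariate. Leaving out a library gave 1 to 5 higher and 1 to 4 lower. The cause of these shifts was not tested.

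Deviations of same-numbered libraries correlated at -0.09, 0.17 and 0.15. Those of differently numbered libraries ranged from -0.24 (WT replicate 3 with mutant replicate 4) to 0.28 (WT replicate 1 with mutant replicate 4). Whether the replicate numbers pair the libraries cannot be told from these values. With the replicate block, fitted without mutant replicate 4, 2 of the 10 genes were higher and 2 lower, ERD10 had an adjusted p of 0.0532 after TMM scaling, COR15A had a log2 fold change of -0.0274, and 2 pathway genes were higher and 1 lower. Without mutant replicate 4 and with no block, ERD10 was called (adjusted p = 0.0139 after TMM scaling), and COR15A and the pathway counts had the same values as with it. Over all genes 613 were higher with 7 libraries, 420 without mutant replicate 4, and 234 with the block added to that. Read depth is unknown, so counting error cannot be set beside the low values of RD29B, COR15B and the CBF genes.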
